A study of Mus musculus with 3 samples.

Results

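In mRNA of mouse embryonic stem cells lacking all Tet enzymes, 744 deeply read cytosines were converted almost completely by bisulfite. They were chosen by their coverage and unconverted share, as cytosines with at least 200 reads in each of the 3 libraries and a pooled unconverted share below 0.3% (unconverted reads over all reads, summed over the libraries). They are called members here. The 744 members are 0.830% of the 89638 cytosines with that depth, called deep cytosines, and 4450412 cytosines were listed in at least 1 library. They lie in 538 transcripts of as many genes, which is 22.9% of the 2347 genes with a deep cytosine. Because the unconverted shares chose the members, those shares and the number of members are given as a description, with no test. Tests were kept to libraries, cytosines or measures that the choice did not use.

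All 3 samples belong to 1 group, Tet1-/-,Tet2-/-,Tet3-/- cells on the J1 background, and samples of other genotypes were not analysed here. The cells grew in serum and ESGRO on fibroblast feeders, which were depleted by letting them attach to dishes. Polyadenylated RNA was fragmented, treated with DNase, converted with a bisulfite kit and read as 100 bp pairs. Nothing in the labels says that the samples were separate cultures, so the spread between them may be technical.

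Bisulfite deaminates unmodified cytosine to uracil, which is read as thymine, whereas 5-methylcytosine and 5-hydroxymethylcytosine stay cytosine. Conversion depends on the cytosine being single-stranded and on the time and heat of the reaction, so a small share of unmodified cytosines usually escapes it. A cytosine far below the residual share of its library is therefore one where hardly any read escaped. A thymine in the genome of the cells at a position listed as cytosine would read the same as a fully converted cytosine, and the sequence of the cells was not used here. Mammalian ribosomal protein and translation factor mRNAs typically begin with a tract of pyrimidines, the terminal oligopyrimidine motif through which their translation is regulated.

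The following transcript starts hold members within their first 50 positions and are shown because members were most frequent there. They come from RefSeq's GRCm38.p6 table and read in the sense of the mRNA. For Rpl10, Rpl19, Rps21, Rpl35a and Snrpe, bases 21 to 50 of the transcript are shown, not its first bases. For Rpl28 bases 1 to 21 are shown, and for Atp5b bases 1 to 30. Every capital marks a member, and all other bases are in lower case.
Rpl10, chrX:74270836-74270865, plus strand: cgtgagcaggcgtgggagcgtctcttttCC
Rpl19, chr11:98026944-98026973, plus strand: gcggcccacaagctctttCctttcgctgct
Rps21, chr2:180257399-180257428, plus strand: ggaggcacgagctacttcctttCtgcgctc
Rpl28, chr7:4792965-4792985, plus strand: ctctttccgtctCcggccgcc
Rpl35a, chr16:33056473-33056502, plus strand: cttgccttcctctttccgccatCttggcgc
Atp5b, chr10:128083307-128083336, plus strand: gtctCCacccggattccgccatgttgagtc
Snrpe, chr1:133610231-133610260, minus strand: ccgaggcggccttcctaCtcgtgtggtctt
In Rpl10, Rpl19 and Rps21 the member lay inside or at the end of a run of pyrimidines of 10, 12 and 10 bases, counted for Rpl10 up to the last base shown. In Snrpe, a subunit of the spliceosomal core, and Rpl35a the run around the member was 3 and 4 bases. Of the 34 members within the first 50 positions, 16 could be placed on such a start. A pyrimidine run of at least 5 bases around the cytosine was present at 9 of these 16 members (56.3%) and at 66 of 544 other deep cytosines placed the same way (12.1%). The median run was 5 bases at members and 2 bases at the others. The 16 members lie in 14 starts, of which 7 hold such a run, and the criterion for placing starts was chosen after seeing the data. Within the first 50 positions, ribosomal protein genes held 15 of the 34 members and 362 of the 1294 deep cytosines. The comparison of runs was not separated by gene group.

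The libraries listed 3846960, 3658396 and 3653533 cytosines in replicates 1, 2 and 3, and their coverage summed to 151362866, 142608298 and 139884444 reads. The unconverted share over all listed cytosines was 1.53%, 1.45% and 1.41%. All 10 embryonic stem cell markers on the list used were present, at 0.502 to 0.530% of the summed coverage. Of 10 fibroblast markers 7 were listed, at 0.0522 to 0.0701%, while Dcn, Lum and Postn were not listed. Members lay in genes of the first marker list 6 times and never in the second, of which 8 genes and 1 gene had any deep cytosine.

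Members were converted far more completely than other cytosines of their depth in each library, as the choice requires. Of the reads over members, 575 of 244859 were unconverted in replicate 1, 512 of 241593 in replicate 2 and 471 of 232504 in replicate 3. These are shares of 0.235%, 0.212% and 0.203%, with a mean of 0.216% ± 0.0166 (SD, n = 3). The other 88894 deep cytosines were at 1.51%, 1.43% and 1.39%, with a mean of 1.44% ± 0.0638. The 3 libraries kept the same order in both sets, replicate 1 being the highest. A single library resolved little: at 200 reads a count of 0 allows a share of up to 1.5%. No unconverted read was seen at 43.8%, 49.1% and 52.7% of the members in replicates 1, 2 and 3. The limit of 0.3% was met in all 3 libraries by 82 members, in exactly 2 libraries by 445 and in exactly 1 by 217. Intervals and limits here cover counting error only, since PCR copies of a molecule could not be told from separate molecules.

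Most members rest on very few unconverted reads. Pooled over the libraries, 30 members had none, 188 had 1, 367 had 2, 93 had 3 and 36 had 4. Their pooled coverage had a median of 799 and a maximum of 5220 reads, against a median of 1110 for the other deep cytosines. It was below 1000 reads at 529 members, at least 2000 at 27 and at least 4000 at 4. The members just inside the limit were Fnta position 1237 (2 of 667 reads), Slfn5 position 5038 (9 of 3003) and Gpi1 position 218 and Itga3 position 3111 (2 of 669 each). Just outside it lay Ints11 position 1324, Adipor1 position 421 and Map1s position 2201 (2 of 666 each) and Sfpq position 2589 (7 of 2329). Cytosines on both sides of the limit thus differed by a few reads of coverage.

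The number of members exceeded what independent reads at 1 common background would give. If every deep cytosine drew its unconverted reads binomially at the share of its library, 36.0 members would be expected, so that the observed number was 20.7 times higher. Members without any unconverted read numbered 30 against 0.713 expected. Without replicate 1, 2 or 3 the same limits gave 1642, 1460 and 1426 members and ratios of 5.43, 6.04 and 6.37, from fewer reads per cytosine. The ratio grew with depth as the expectation approached 0. Between 600 and 800 pooled reads there were 373 members against 30.2 expected, between 1000 and 1500 reads 157 against 1.29, and between 2000 and 4000 reads 23 against 0.000195. The number in excess fell over the same classes, from 343 to 156 and 23.0. The share of deep cytosines that were members nevertheless fell with depth, from 1.80% between 600 and 800 reads to 0.0457% at 4000 reads or more.

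**Figure D1:**
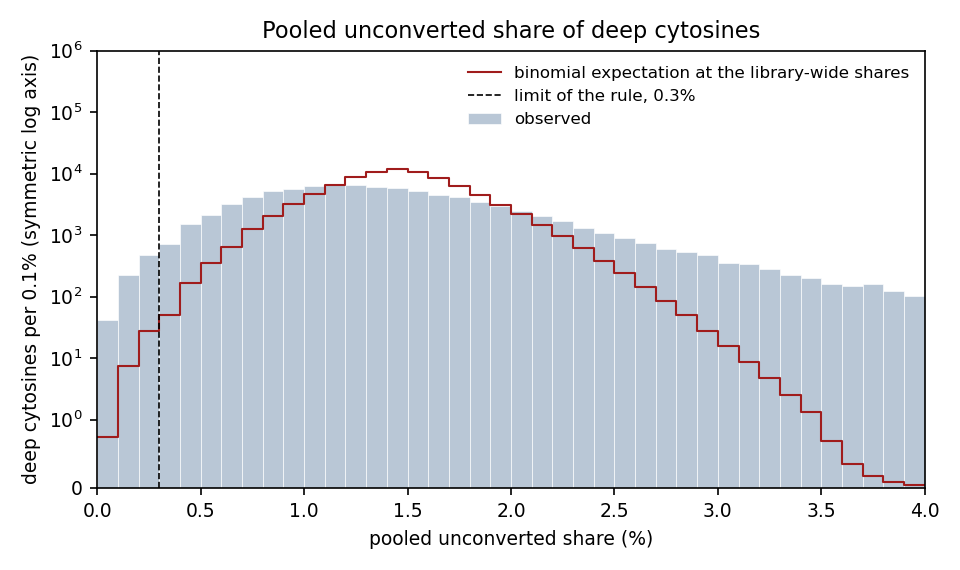
Number of deep cytosines (symmetric log axis) per 0.1% of pooled unconverted share (x axis), with the binomial expectation as a red line and the limit of 0.3% as a dashed line. The observed distribution is wider than the expectation on both sides, with 744 cytosines left of the dashed line where 36.0 were expected.

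This excess belongs to a distribution that was wide as a whole. The pooled share of all deep cytosines had a median of 1.34%, and its 5th and 95th percentiles were 0.575% and 2.71%. With the share of the transcript's other deep cytosines as the background, 92.9 members were expected and the ratio was 8.01. When the background was allowed to vary between cytosines with a beta-binomial spread fitted to all deep cytosines, 2501 members were expected and the ratio turned to 0.297. Fitted to cytosines below 5% only, a limit chosen after seeing the data, the spread gave 1269 expected and a ratio of 0.586. Both spreads were fitted to the same shares that chose the members, so these ratios are descriptions and depend on the form of the fit.

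The most deeply read members were low in each library, as the choice by pooled share largely requires at that depth. Rpl10, a protein of the large ribosomal subunit, had the deepest one at position 52, with 7 of 1695, 5 of 1876 and 2 of 1649 reads unconverted in replicates 1, 2 and 3. In Slfn5, a Schlafen family gene, position 5060 had 6 of 1167, 4 of 1591 and 3 of 1708. In Sod1, the cytosolic superoxide dismutase, position 106 had 1 of 1474, 1 of 1488 and 4 of 1424. All 9 values lay below 0.6% and replicate 1 was the highest in Rpl10 and Slfn5 but not in Sod1. Cacybp, which encodes a calcyclin-binding protein, had 5 of 1529, 1 of 1520 and 4 of 1281 at position 217. Rpl3, also of the large subunit, had 1 of 1241, 0 of 1381 and 1 of 1274 at position 61, which is 0.0513% pooled (95% Wilson interval 0.0141 to 0.187%). Rps13, of the small subunit, had 1 of 1294, 4 of 1246 and 2 of 1311 at position 257. Sem1, a proteasome subunit gene, had 1 of 1227, 7 of 1346 and 2 of 1187 at position 110. Rpl3 position 61 was thus the lowest of the 7 deepest members. Also among the 12 deepest were Rpl39 position 19, Rps3 position 64, Myl6 position 11 in a myosin light chain gene, and Rpl10 position 50. Ribosomal protein genes have near-identical copies in the genome, so the origin of some of their reads is uncertain.

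**Figure D2:**
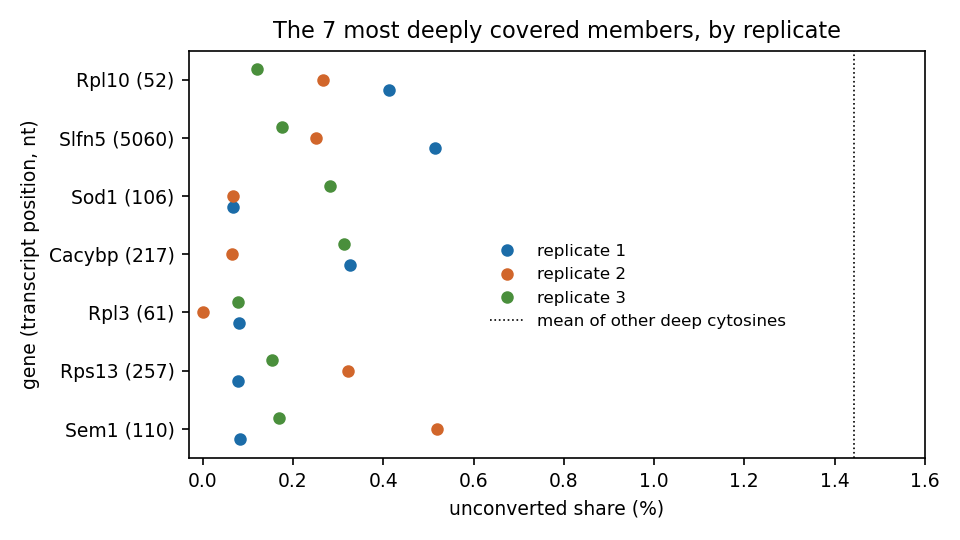
Unconverted share (x axis, %) of the 7 members with the largest pooled coverage in each replicate (colours), with the mean of the other deep cytosines as a dotted line at 1.44%. Every point lies left of the line, between 0 and about 0.52%, as the choice by pooled share largely requires.

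The most deeply read member without an unconverted read was position 1268 of Nudc, a nuclear distribution gene, at 473, 536 and 519 reads. A count of 0 over its 1528 pooled reads allows a share of up to 0.196%. Next came position 7424 of the centrosomal gene Cep192 with 406, 436 and 426 reads, and Armc1 position 753 with 342, 378 and 294 reads. Others among the deepest 10 were in Nr0b1, an orphan nuclear receptor of pluripotent cells, Fbxo5, which encodes an inhibitor of the anaphase-promoting complex, Nsun2, Arglu1 and Etnk1. Nsun2 encodes an RNA cytosine methyltransferase. Its position 2628 had no unconverted read in 280, 233 and 276 reads, and position 2633 had 0 of 372, 1 of 330 and 1 of 366. Both values describe conversion of this mRNA at those positions and say nothing of the enzyme's activity.

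Cytosines chosen in 2 libraries were also low in the library that was not used to choose them, although less extremely. With replicate 1, 2 or 3 held out, 1538, 1317 and 1245 deep cytosines met the limit of 0.3% in the other 2 libraries. In the held-out library their unconverted share was 0.818%, 0.737% and 0.720% (0.758% ± 0.0524, SD, n = 3), against 1.51%, 1.43% and 1.39% for the other deep cytosines (1.44% ± 0.0643). The difference was −0.686 ± 0.0165 percentage points and pointed down in 3 of 3 libraries. The 3 choices overlapped, and 555, 543 and 524 of the chosen cytosines were members. The 3 differences are thus not independent, and neither their SD nor sign flips over them account for this. An exact two-sided sign-flip permutation test gave p = 0.25, the smallest value 3 libraries allow. The chosen cytosines were thus at 0.525 times the share of the others once read in a library that had no part in the choice.

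The difference held at every depth and within transcripts. Against other deep cytosines weighted to the same coverage it was −0.714 ± 0.0177 percentage points, and against those of the same transcripts −0.658 ± 0.0207. Chosen cytosines with 600 to below 1000 pooled reads were at 0.841% ± 0.0578 in the held-out library, and those with 1000 to below 2000 reads at 0.718% ± 0.0535. The 64, 47 and 41 chosen cytosines with 2000 or more reads were at 0.499% ± 0.0593, against 1.43% for others of that depth. The deeper the chosen cytosines, the lower they stayed. Counting error alone passes fewer cytosines through the same limit at greater depth, so this order is not separate from the choice. In the held-out library 87.1%, 87.2% and 85.5% of the chosen cytosines were below the share of the library, against 57.0%, 57.7% and 57.6% of the others. The limit of 0.3% was met again by 15.5%, 19.6% and 19.8% of them, against 2.94%, 3.69% and 4.13% of the others.

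**Figure D3:**
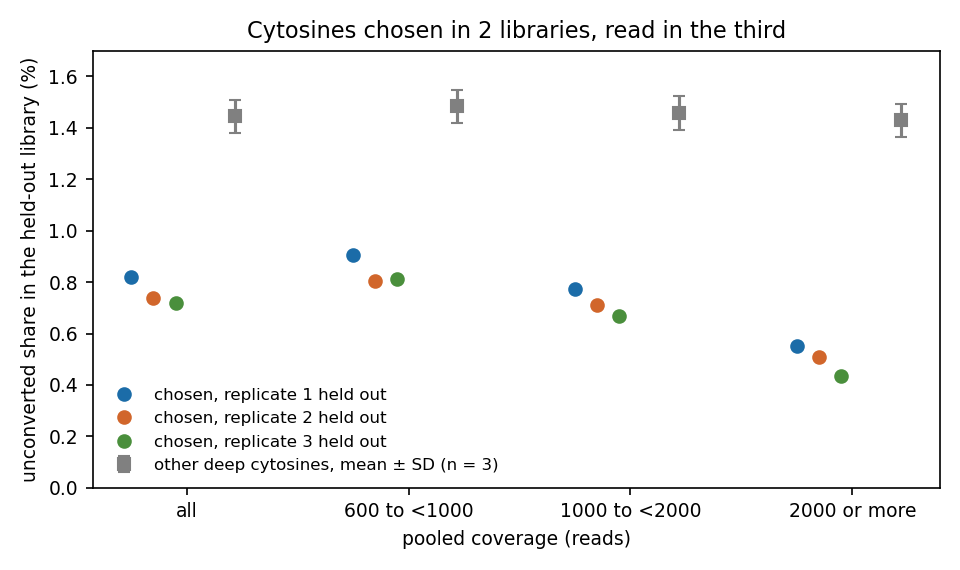
Unconverted share in the held-out library (y axis, %) of cytosines chosen in the other 2 libraries (coloured points, 1 per held-out replicate) and of the other deep cytosines (grey squares, mean ± SD, n = 3), for all and by pooled coverage (x axis, reads). Chosen cytosines lie below the others in each class, and lowest at 2000 reads or more (0.499% against 1.43%).

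Few single cytosines could be called below the background in 1 held-out library. Each deep cytosine was tested by a one-sided exact binomial test against the share of that library, with Benjamini-Hochberg adjustment over all 89638. With replicate 1 held out, 20 of the 1538 chosen cytosines passed an adjusted p of 0.05 (1.30%), where 1.21% of all deep cytosines did. With replicate 2 held out 15 of 1317 passed (1.14%, against 1.17% of all), and with replicate 3 held out 12 of 1245 (0.964%, against 1.03% of all). Set against all deep cytosines, these shares are near the background and are no result about the chosen cytosines. Other deep cytosines weighted to the coverage of the chosen ones passed less often than these, at 0.115%, 0.106% and 0.0551%. The outcome thus depends on whether coverage is matched. At an unadjusted p below 0.05, 349, 305 and 267 chosen cytosines passed (22.7%, 23.2% and 21.4%), where 9.86%, 10.0% and 9.60% of all deep cytosines did. At that threshold the chosen cytosines thus exceeded the background in each library. Reads of 1 cytosine are taken as independent in this test, and no spread between samples enters it.

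The adjusted calls, 47 over the 3 held-out libraries, fell on 28 cytosines, of which 18 were members. Ribosomal protein genes, with 9.95% of all deep cytosines and a median pooled coverage of 3401 reads, held 28 of the 47, and 19 were left without them, a comparison chosen after seeing the data. Called in every held-out library were 5 cytosines, among them Sod1 position 106, Rpl3 position 61, Rps13 position 257 and Myl6 position 11. They were singled out after their values were seen. Without replicate 1 among the held-out libraries there were 27 calls, and without replicate 2 or 3 there were 32 and 35. In Myl6 the unconverted reads were 3 of 1008, 2 of 1134 and 3 of 1019, with adjusted p of 0.017, 0.0022 and 0.037 by that exact test. In Sod1 the adjusted p was 2.7e-06, 5.3e-06 and 0.0034. For these sites each library served in turn to choose and to test. The 3 p-values of a site are thus not independent, and no joint result is read from them. Another 9 cytosines were called in 2 held-out libraries and 14 in 1.

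Members were spread over many genes with 1 or a few each. Of the 538 genes, 391 held 1 member, 109 held 2, 25 held 3 and 13 held 4 or more. Ddx5, a DEAD-box RNA helicase, held most, with 7 of its 260 deep cytosines at positions 61, 483, 1968, 1974, 1977, 1996 and 3463. The deepest of these, position 1977, had 1 of 408, 0 of 417 and 2 of 443 reads unconverted. Cldn4, which encodes a tight junction protein, held 6 of 117. At its positions 171 and 172 the reads were 1 of 280, 0 of 341 and 1 of 293, and 2 of 281, 0 of 344 and 0 of 299. L1td1, an RNA-binding protein of pluripotent cells, held 5 of 202, and its positions 2385, 2389 and 2393 lay 4 bases apart. Atp5b, the beta subunit of mitochondrial ATP synthase, held 5 of 396, and Agrn, a heparan sulfate proteoglycan, 5 of 453. Genes with 4 members were Farsa, Hcfc1, Etnk1, Ccn2, Gpi1, Cct2, Ywhag and Hspd1.

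The other cytosines of genes with a member were converted almost as those of genes without one. The remaining deep cytosines of transcripts with a member were at 1.44% ± 0.0641 (SD over 3 libraries, 39251 cytosines), and those of transcripts without one at 1.45% ± 0.0636 (49643 cytosines). Within libraries the difference was −0.00547 ± 0.000935 percentage points, lower in 3 of 3. Genes with a member had more deep cytosines, with a median of 41 against 14. Of the 227 genes with at least 100 deep cytosines, 138 held a member and 89 did not. The abundant mRNAs of Hsp90ab1 (a cytosolic chaperone, 515 deep cytosines), Actg1 (398) and Actb (367, both cytoplasmic actins) and Ncl (nucleolin, 326) held none. Their median pooled coverage was 2609, 2903, 2479 and 1409 reads. Of all deep cytosines, 0.189% were members at 2000 to below 4000 reads and 0.742% at 1000 to below 1500. Few members were thus usual at such depth, and nothing particular to these mRNAs is read from their absence.

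Among genes with at least 20 deep cytosines, Fem1b had the largest share of members. It encodes a substrate receptor of a ubiquitin ligase, and 3 of its 20 deep cytosines (15%), at the adjacent positions 1555, 1556 and 1557, were members. Their reads were 2 of 309, 0 of 220 and 0 of 232 at the first of them, 2 of 324, 0 of 229 and 0 of 235 at the next, and 1 of 340, 0 of 241 and 0 of 246 at the last. All unconverted reads at these 3 cytosines came from replicate 1, and because neighbours share reads the positions are not independent. Next were the small GTPase gene Rab1a (9.52%), Kcmf1 (8.82%), Eif1ad, Nup133 and Wdtc1 (8.70% each), Gapdh (8.33%), Metap1 and Stk38 (8% each) and Sdhd (7.69%), with 2 or 3 members each. In Gapdh, the glycolytic dehydrogenase, position 182 had 1 of 425, 1 of 316 and 0 of 366.

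Gene groups differed in the share of their deep cytosines that were members, and also in their coverage. Over all deep cytosines that share was 0.830%. It was 1.09% in pluripotency genes (15 of 1380 in 7 genes), where L1td1 held 5, the Nodal co-receptor gene Tdgf1 3 and Nr0b1 and Utf1 2 each. At position 985 of Tdgf1 the reads were 1 of 406, 0 of 428 and 1 of 388. It was 1.02% in splicing regulators (14 of 1378, 3 of them in Hnrnph1) and 0.993% in glycolysis (9 of 906, 4 of them in Gpi1). It was lower in chaperones (22 of 3368, 0.653%, with 4 each in Cct2 and Hspd1), translation factors (13 of 2839, 0.458%), ribosomal proteins (40 of 8917, 0.449%), replication (5 of 1159, 0.431%), chromatin (5 of 1226, 0.408%) and the cytoskeleton (7 of 2353, 0.297%). Of the writers and readers of RNA 5-methylcytosine, Nsun2 alone held members, 2 of the 338 deep cytosines of the list. Median pooled coverage was 3401 reads in ribosomal protein genes and 1194 in pluripotency genes, and the share of members fell with coverage. These counts are descriptions, and nothing particular to a list is read from them.

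Members were most frequent at the very start of transcripts. Positions 1 to 50 held 34 members among 1294 deep cytosines (2.63%), positions 51 to 100 held 0.691%, those above 200 and up to 500 held 0.515%, and those above 5000 held 1.45%. The first 50 positions thus held 4.57% of members and 1.28% of other deep cytosines weighted to the same coverage. By pooled coverage, members were 3.91% in the first 50 positions and 1.78% beyond at 600 to below 800 reads, 2.09% and 0.723% at 1000 to below 1500, and 3.31% and 0.142% at 2000 to below 4000. At 4000 reads or more they were 0 of 211 and 4 of 8540. In ribosomal protein genes the shares were 15 of 362 (4.14%) and 25 of 8555 (0.292%), and in all other genes 19 of 932 (2.04%) and 685 of 79789 (0.859%). The direction was the same in both gene sets.

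A difference in the same direction was measured in cytosines that could not be members. Among 1525130 cytosines with 10 to below 200 reads in each library, the unconverted share was 1.38% ± 0.0593 (SD, n = 3) at positions 1 to 50 and 1.48% ± 0.0637 beyond. The difference of −0.0995 ± 0.0290 percentage points pointed down in 3 of 3 libraries (exact sign-flip permutation p = 0.25, the smallest possible).

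Members in the first 50 positions often stood where coverage rose steeply along the transcript. The values below set each against the nearest listed cytosine at least 5 nt to either side. In Rpl10, whose start is printed above, pooled coverage was 62 reads at position 44, 2351 at the member 49, 3098 at the member 50 and 8788 at position 56. In Rpl19 it was 10 reads at position 33, 728 at the member 39 and 2124 at position 44. In Eef2, the factor that moves the ribosome along the mRNA, it was 24 at position 16, 883 at the member 22 and 1555 at position 27. Each of these members thus had many times the coverage of that upstream cytosine. In Pabpc1, the cytoplasmic poly(A)-binding protein gene, coverage was 130 at position 4, 1541 at the member 10 and 3023 at position 15. In Rpl39 it was 677 at position 12, 3389 at the member 19 and 5470 at position 26. Of the 30 such members with a listed cytosine at least 5 nt upstream, 21 had upstream coverage below 0.5 of their own. Members in Rpl32 position 22, Rpl4 position 49 and Snrpg position 27 did not, with upstream coverages of 1558, 611 and 678 reads against 2393, 796 and 735 of their own.

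The step in coverage was seen along whole transcripts. The pooled coverage of the nearest listed cytosine 5 to 20 nt upstream was below 0.5 of its own at 73 of 727 members (10.0%) and at 1.63% of other deep cytosines (1.53% weighted to the same coverage). On the downstream side it was so at 9 of 726 members (1.24%) and 1.95% of the others. The median ratio was 0.803 upstream and 1.12 downstream for members, and 0.981 and 0.971 for the others. Coverage rose through the site, with a higher ratio downstream than upstream, at 525 of 710 members (73.9%) and 48.4% of the others. Sod1 position 106 and Cacybp position 217 were deep members without such a step just upstream, with upstream ratios of 0.970 and 0.828. That of Rpl3 position 61 was 0.0267. Sod1 position 106 still stood on a rise, with a downstream ratio of 1.55, where Cacybp had 0.846. At 50 to 100 nt upstream of the Sod1 site the median coverage was 225 reads, against 4386 of its own.

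The share of members among deep cytosines followed this ratio. It was 14.5% (28 of 193) where the upstream neighbour had less than 0.25 of the coverage, 3.46% at 0.25 to 0.5, 1.86% at 0.5 to 0.8, 0.567% at 0.8 to 1.25 and 0.241% above that. Where the downstream neighbour had less than 0.25 of the coverage there was no member among 206, and where it had 1.25 or more 2.03% were members. Median pooled coverage of these classes lay between 988 and 1276 reads. The measure was chosen after seeing the data.

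**Figure D4:**
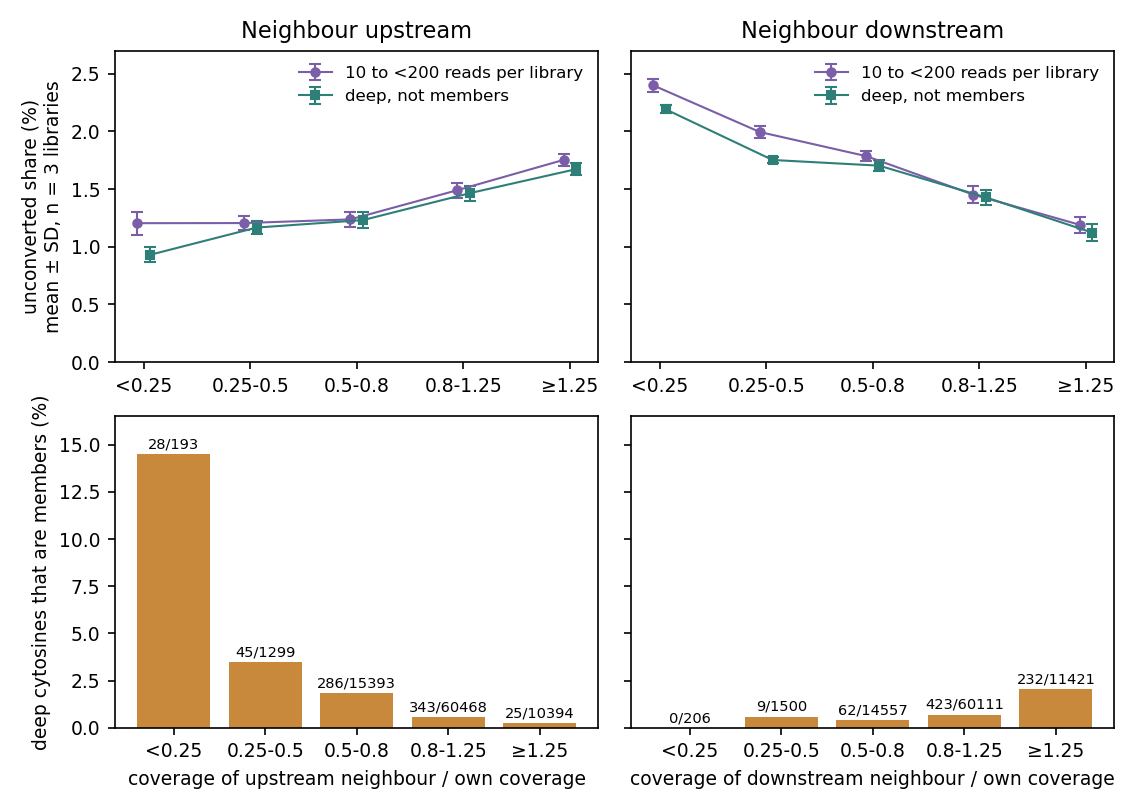
Unconverted share (upper panels, %, mean ± SD, n = 3 libraries) of non-member cytosines, and share of deep cytosines that were members (lower panels, %, members over deep cytosines above each bar), by the coverage of the neighbour 5 to 20 nt upstream (left) or downstream (right) over the site's own. In the upper panels the unconverted share rises with the upstream ratio and falls with the downstream ratio. In the lower panels the share of members goes the opposite way, and 28 of 193 cytosines in the lowest upstream class were members.

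Cytosines outside the choice showed the same order. Among those with 10 to below 200 reads per library, the unconverted share was 1.20% where the upstream neighbour had less than 0.25 of the coverage. It was 1.21% at 0.25 to 0.5, 1.24% at 0.5 to 0.8, 1.49% at 0.8 to 1.25 and 1.75% above that. Below a ratio of 0.8 it thus changed little, unlike the share of members, and in replicate 1 the first 2 classes were at 1.30% and 1.26%. By the downstream neighbour the order was opposite, 2.40% in the lowest class and 1.19% in the highest. With an upstream ratio below 0.5 the share differed by −0.277 ± 0.0149 percentage points from that without, and was lower in 3 of 3 libraries. With a downstream ratio below 0.5 it was higher by 0.577 ± 0.0641, also in 3 of 3. Both differences were larger than their SD over the 3 libraries, which may hold only technical spread. The exact sign-flip permutation p was 0.25 for each, the smallest 3 libraries allow.

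Start and step overlapped. In the first 50 positions 21 of 204 deep cytosines with an upstream step below 0.5 were members (10.3%), and 9 of 1066 without it (0.844%). Beyond position 50 the counts were 52 of 1288 (4.04%) and 645 of 85189 (0.757%). Without a step the 2 position classes thus differed little. With the share of shallower cytosines of the same upstream and downstream classes as the background, chosen after seeing the data, 60.9 members were expected and the ratio of observed to expected was 12.2. The held-out difference within these classes was −0.571 ± 0.0216 percentage points. Positions of the cytosines within reads were not analysed here.

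Cytosines were more frequent just upstream of members. A listed cytosine stood 2 nt upstream of 30.6% of members and 22.5% of other deep cytosines weighted to the same coverage, and 3 nt upstream of 32.4% and 26.4%. At 1 nt upstream it was 27.8% and 24.9%, and at 1 and 2 nt downstream 28.1% and 25.0%, and 26.2% and 23.0%. At 3 and 7 nt downstream members had fewer, with 23.1% against 26.9% and 20.6% against 25.0%. Cytosines on both sides were present at 10.1% of members and 5.67% of the others, and 3 in a row upstream at 2.55% and 1.22%. The number of cytosines within 10 nt was the same, with a median of 5 in both sets. A cytosine next to the site on either side was about as frequent at members (45.8%) as at the others (44.3%).

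**Figure D5:**
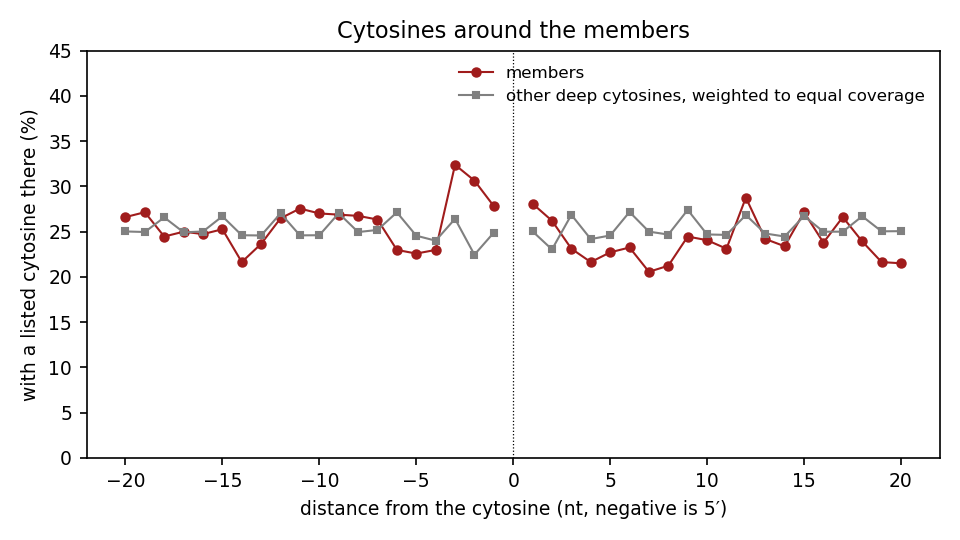
Share (y axis, %) of members (red) and of other deep cytosines weighted to equal coverage (grey) with a listed cytosine at each distance from the site (x axis, nt, negative values 5′). Members stand above the others at 3 and 2 nt upstream (32.4% against 26.4% and 30.6% against 22.5%) and below them from 3 to 9 nt downstream.

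The upstream cytosines also went with lower shares outside the choice. Among cytosines with 10 to below 200 reads, those with a cytosine 2 nt upstream were at 1.34% ± 0.0628 and those without at 1.52% ± 0.0639, a difference of −0.174 ± 0.00332 percentage points. At 3 nt upstream the difference was −0.178, at 1 nt upstream −0.130, at 1 nt downstream −0.0351 and at 2 nt downstream −0.0597, each down in 3 of 3 libraries. At 4, 5 and 6 nt upstream it was −0.0675, −0.0425 and −0.0332, also down in 3 of 3, although members had fewer cytosines there (23.0% against 27.1% at 6 nt). At 7 nt downstream it was +0.0178 and up in 3 of 3. The exact sign-flip permutation p of each was 0.25, the smallest possible, over 15 features compared. Among deep cytosines without a coverage step, 0.938% were members with a cytosine 2 or 3 nt upstream and 0.620% without. In the placed transcript starts, non-member cytosines were at 1.15% ± 0.0576 after a thymine, 1.27% ± 0.0652 after a cytosine, 1.42% ± 0.0968 after a guanine and 1.52% ± 0.0374 after an adenine. The base that followed also went with the share. It was 1.21% ± 0.0594 before an adenine, 1.30% ± 0.0558 before a cytosine, 1.33% ± 0.0814 before a thymine and 1.44% ± 0.0911 before a guanine.

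Members lay close together more often than other deep cytosines lay close to a member. Another member was within 10 nt of 97 members (13.0%), against 3.84% of other deep cytosines weighted to the same coverage. It was 24.3% and 20.5% of members with a coverage minimum of 100 and 500 reads. Those limits gave 5700 and 44 members, and the share of other deep cytosines near a member was not computed for them. Of 206 pairs of consecutive members of a transcript, 14 were adjacent, 9 were 2 nt apart, 9 were 3 nt apart and 119 were more than 100 nt apart. In stretches of consecutive deep cytosines that were all members, 686 members stood alone, 26 stretches held 2 and 2 held 3. The stretches of 3 were Rpl10 positions 49, 50 and 52 and Fem1b positions 1555 to 1557. The deepest stretches of 2 were H2az1 positions 518 and 519, Rps9 positions 540 and 547 and Trim28 positions 2839 and 2840. In H2az1, a histone variant gene, the reads were 3 of 668, 0 of 719 and 3 of 664 at the first position and 3 of 688, 2 of 758 and 1 of 694 at the other. Neighbours share reads, so runs of members are not separate observations.

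Cytosines next to members were also more completely converted than usual. Non-member deep cytosines 1 nt from a member were at 0.958% ± 0.0544 (SD, n = 3), against 1.39% ± 0.0656 next to other deep cytosines. At 2 to 3 nt the shares were 1.07% and 1.37%, at 4 to 10 nt 1.21% and 1.43%, at 11 to 30 nt 1.33% and 1.45%, and at 31 to 100 nt 1.49% and 1.45%. The lower share near members thus shrank with distance and was not seen beyond 30 nt. Close neighbours share reads with the members, and the same libraries chose the members. These shares are therefore not independent of the choice and are given as a description. The neighbours of single members varied. At Rps13 position 257 the non-members within 10 nt were at 1.97% and at Cacybp position 217 at 1.65%, while at Fem1b position 1555 they were at 0.495%.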

How the data were processed

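The study sequenced bisulfite-converted mRNA of 3 samples of 1 group. The deposited tables give the transcript position of each cytosine of a RefSeq mRNA and its coverage as a count of reads, not normalized. Unconverted reads were given by the authors as a fraction of this count. Per the submitters' processing notes, BSMAP and build mm9 were used; for versions, annotation and counting steps: not given in the sources used here. No coverage below 3 was listed. Coverage times fraction was whole within 1e-06 and gave the unconverted reads. Transcript identifiers were matched to symbols for 14932 of 15021 transcripts.

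Scripts in Python 3.11.15 (pandas 2.3.3, numpy 2.4.6, scipy 1.17.1, matplotlib 3.10.9) were tested on simulated data. Expected members summed exact binomial probabilities over deep cytosines. Held-out libraries were tested by exact sign flips over libraries and by exact binomial tests with Benjamini-Hochberg adjustment. "Weighted" means that each class of pooled coverage counted by its share of the members. For held-out shares the classes counted by the reads of the chosen cytosines. For held-out calls they were classes of coverage in the held-out library, counted by the number of chosen cytosines. Starts were placed on RefSeq where every listed position, at least 5, fell on a cytosine (3184 of 4485 transcripts, 71.0%), or where all cytosines of the window printed did. Alternatives were other coverage and share limits, backgrounds, windows and left-out replicates. Members and lists were chosen with earlier results of these data known. Named were the genes with most members, the deepest members, the deepest without unconverted reads, the genes with the largest share, the longest stretches, the members beside the limit and up to 3 genes per list; others, including those of the first 50 positions, were named after their values were seen. Positions in coding or untranslated sequence were not used here. Certain items chosen in this way were left out of the text.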

Additional observations from a re-analysis of the deposited data

How the results depend on the processing

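The number of members (744) is set by its limits. It was 5700, 219 and 44 with a coverage minimum of 100, 300 and 500 reads, 270 and 2981 with a share limit of 0.002 and 0.005, 30 with no unconverted read, 82 when each library had to meet the limit, and 1426 to 1642 without 1 replicate. The ratio of observed to expected members (20.7) was 17.8 with the background over deep cytosines, 8.01 with that of the transcript's other deep cytosines, 12.2 with the background by coverage slope class, 3.46, 163 and 11352 with a minimum of 100, 300 and 500 reads, and 5.43 to 6.37 without 1 replicate. It reversed to 0.297 with a beta-binomial spread and to 0.586 with that spread fitted below 5%.

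The held-out difference (−0.686 points) stayed negative in each alternative run. It was −0.714 within coverage bins, −0.658 within transcripts, −0.647 for cytosines at exactly 0 in the choosing libraries, −0.542, −0.772 and −0.881 with a minimum of 100, 300 and 500 reads, −0.571 within coverage slope classes, and −0.696 to −0.681 without 1 replicate. The 47 held-out calls became 74 with a minimum of 500 reads, 921 unadjusted, 19 without ribosomal protein genes, and 27 to 35 without 1 held-out replicate. Members with another member within 10 nt (13.0%) were 9.54% within 5 nt, 16.8% within 20 nt, 24.3%, 16.0% and 20.5% with a minimum of 100, 300 and 500 reads, and 13.5 to 17.4% without 1 replicate. A neighbouring cytosine (45.8%) was present at 49.8% and 50% of members with a minimum of 300 and 500 reads and at 44.2 to 45.6% without 1 replicate. The slope classes, the fit below 5%, the removal of ribosomal protein genes and the left-out replicates of the held-out calls were chosen after seeing the data. The cause of these shifts was not tested.

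No paired analysis was possible because there is only 1 group, so that replicate numbers pair no samples; cytosines were compared within libraries throughout. Depth limits each single value, since at 200 reads a count of 0 allows 1.5%, and most members rest on 2 unconverted reads or fewer.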
